A study of Mus musculus with 24 samples.

Results

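Mitochondria carry their own ribosome, which translates the few proteins encoded in mitochondrial DNA, all of them core subunits of the respiratory chain and ATP synthase. Its RNA comes from mitochondrial DNA, but all of its proteins are encoded in the nucleus, made by the cytosolic ribosome and imported. Symbols starting with Mrpl were given to proteins of the large subunit, which joins amino acids into chains, and symbols starting with Mrps to proteins of the small subunit, which reads the messenger RNA. Skeletal muscle is rich in mitochondria, and disuse is known to lower its oxidative capacity. The members described here are the probe sets annotated to a symbol made of Mrpl or Mrps and a digit. They number 127 of 22626 probe sets without controls and stand for 74 of 12393 genes. Of these 74, 47 have an Mrpl and 27 an Mrps symbol. The symbols do not match the subunits throughout, since the products of Mrps30 and Mrps18a are known to lie in the large subunit and that of Mrps36 is now placed outside the ribosome.

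Mitochondrial ribosomal protein (Mrp) mRNA was measured in the gastrocnemius and plantaris muscles of male mice, 6 weeks old, on 24 Affymetrix Mouse Genome 430A 2.0 arrays. The hind limbs had been kept off the ground for 6 days (hind limb unloading, HU) or had carried the body weight throughout (weight bearing, WB). The 6 groups of 4 arrays each were HU and WB Nfkb1-/- mice (B6;129P2-Nfkb1tm1Bal/J, which lack the p50 subunit of NF-κB), HU and WB Bcl3-/- mice (FVB;129P2-Bcl3tm1Ver/J, which lack Bcl-3, a nuclear co-activator that binds p50 dimers) and HU and WB wild type mice (B6129PF2/J). Both deletions are present in every cell of the mouse and from conception, and each knockout line has a strain background of its own. The comparisons ask how unloading changes these mRNAs in each genotype, and whether the response in Nfkb1-/- mice differs from that in wild type mice.

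Values are linear intensities, and levels of different probe sets cannot be compared. The 16 wild type and Nfkb1-/- arrays had medians of 11.6 to 11.9, and the 8 Bcl3-/- arrays had medians of 81.1 to 86.8, so Bcl3-/- levels were not compared with the other genotypes and the difference between the Bcl3-/- and wild type responses was not tested. In the Bcl3-/- mice this difference in scale, the strain and the genotype cannot be told apart. Where Nfkb1-/- mice are compared with wild type mice, the strain and the genotype cannot be told apart either. The defining genes of muscle fibres were strong on every array, with summed intensities over 6 genes of 37874 to 38973 in HU and 39703 to 40017 in WB Nfkb1-/- muscle. No probe set is named Nfkb1 in the annotation used here, and the Bcl3 probe set was below the median of the array on all 24 arrays, wild type included, so neither deletion was checked. Of the 127 members, 120 were above an intensity of 20 on at least 4 of the 24 arrays and were tested, with at least 1 probe set for each of the 74 genes. Because the Bcl3-/- arrays are brighter, 18 of these 120 were not above 20 on 4 of the other 16 arrays. The muscles are whole tissue, in which fewer cells of a type and less mRNA per cell cannot be told apart.

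The promoters of the Mrp genes are shown first because so many of these genes moved in the same direction with unloading in Nfkb1-/- muscle. RefSeq windows (GRCm38.p6) of 300 bases, 250 before to 50 after the transcription start, were found for 65 of the 74 genes, with 71 windows. The 4 below belong to the genes named below whose probe set had the lowest values for the Nfkb1-/- response minus the wild type response. Capitals mark matches on either strand to CCGGAAG, which ETS factors such as GABPA bind, or to AANATGGC, which YY1 binds. Windows were also searched for the NRF-1 motif and for the κB consensus that p50 dimers bind. No match to any of the 4 motifs was found in the Mrpl55 window, which says only that these letters are not in it.
Mrpl55, chr11:59202236-59202535, plus strand: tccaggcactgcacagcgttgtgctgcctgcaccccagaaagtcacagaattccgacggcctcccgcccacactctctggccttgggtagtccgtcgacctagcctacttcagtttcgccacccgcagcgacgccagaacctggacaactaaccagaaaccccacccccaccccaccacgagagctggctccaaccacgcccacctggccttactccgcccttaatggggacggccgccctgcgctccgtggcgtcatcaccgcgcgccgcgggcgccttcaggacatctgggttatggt
Mrpl3, chr9:105053018-105053317, plus strand: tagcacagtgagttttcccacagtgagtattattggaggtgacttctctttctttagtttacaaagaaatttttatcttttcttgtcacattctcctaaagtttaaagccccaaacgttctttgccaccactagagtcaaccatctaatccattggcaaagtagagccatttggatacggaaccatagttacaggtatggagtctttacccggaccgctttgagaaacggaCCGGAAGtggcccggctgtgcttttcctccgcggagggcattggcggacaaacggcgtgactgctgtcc
Mrpl36, chr13:73330759-73331058, plus strand: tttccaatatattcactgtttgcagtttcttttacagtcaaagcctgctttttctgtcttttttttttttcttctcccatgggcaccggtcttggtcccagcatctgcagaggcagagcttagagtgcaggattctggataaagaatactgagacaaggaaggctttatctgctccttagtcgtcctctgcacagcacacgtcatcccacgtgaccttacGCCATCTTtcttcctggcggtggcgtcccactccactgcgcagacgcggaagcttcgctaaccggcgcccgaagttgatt
Mrpl18, chr17:12916042-12916341, minus strand: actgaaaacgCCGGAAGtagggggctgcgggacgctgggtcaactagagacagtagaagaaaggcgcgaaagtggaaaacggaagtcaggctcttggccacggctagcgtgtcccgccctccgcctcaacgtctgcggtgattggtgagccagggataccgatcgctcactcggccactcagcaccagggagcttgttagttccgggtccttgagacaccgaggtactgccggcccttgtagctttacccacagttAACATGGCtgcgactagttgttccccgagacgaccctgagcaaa
The ETS motif was in 24 of 71 Mrp windows (33.8%), against 8.86% of all 32851 windows. The YY1 motif was in 20 Mrp windows (28.2%), against 6.05% of all windows, and the NRF-1 motif in 13 (18.3%), against 6.23%. The κB consensus was in 2 Mrp windows (2.82%), against 4.51% of all windows. Among the 38 windows of Mrp genes that had a probe set lower with unloading in Nfkb1-/- mice, the ETS motif was in 36.8% and the κB consensus in 2.63%, against 30.3% and 3.03% of the 33 windows of the other Mrp genes. In the same 38 windows the YY1 motif was in 28.9% and the NRF-1 motif in 18.4%, against 27.3% and 18.2% of the 33. Matches are descriptions of the letters and not measured binding sites.

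Many Mrp mRNAs were lower after unloading in Nfkb1-/- muscle. Of the 120 probe sets, 49 (40.8%, 40 genes) were lower and 1 was higher at an adjusted p under 0.05 in a limma fit over all probe sets, where 6.59% of all 19294 probe sets were called lower and 4.79% higher. The median change was -0.25 on the log2 scale (-16.0%), with quartiles of -0.36 and -0.13, while the median over all probe sets was 0.00. In 65 of the 120, all 4 HU arrays lay below all 4 WB arrays, against 10.9% of all probe sets. Members with both kinds of symbol fell, with 37 of 82 Mrpl probe sets lower (45.1%, median -0.26) and 12 of 38 Mrps probe sets lower (31.6%, median -0.23). Among the 102 members above 20 on at least 4 of the wild type and Nfkb1-/- arrays, 46 (45.1%) were lower, against 11.0% of all such probe sets.

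**Figure D1:**
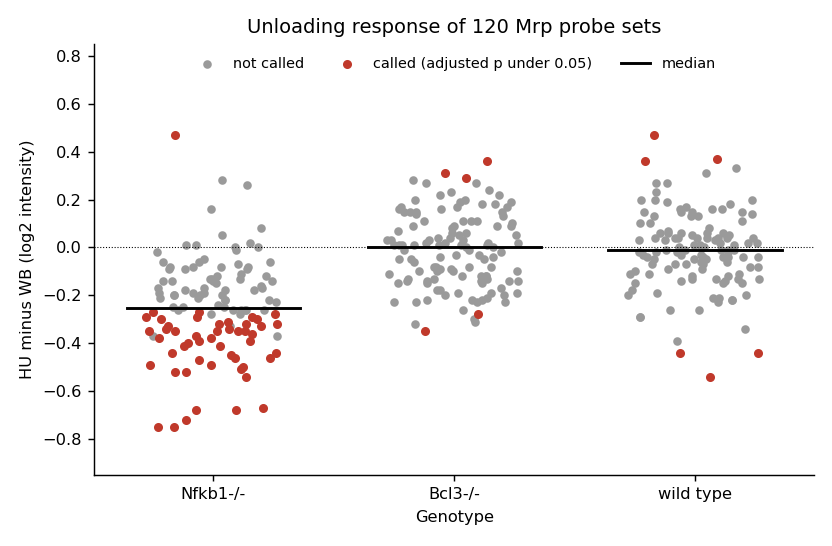
Log2 change with unloading (HU minus WB, vertical axis) of each of 120 Mrp probe sets (points) in Nfkb1-/-, Bcl3-/- and wild type muscle, red where the adjusted p was under 0.05, with the median as a black line. The Nfkb1-/- points lie mostly below 0, with a median of -0.25, while the Bcl3-/- and wild type medians are 0.00 and -0.01.

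The mean log2 level over the 120 probe sets, relative to the WB mean of the genotype, was -0.25, -0.20, -0.20 and -0.34 on the 4 HU Nfkb1-/- arrays, against -0.05, 0.01, 0.03 and 0.01 on the WB Nfkb1-/- arrays. All 4 HU arrays were below all 4 WB arrays. On the same scale, the HU Bcl3-/- arrays were at -0.06, -0.02, -0.05 and 0.07, against 0.01, -0.01, 0.06 and -0.06 on the WB Bcl3-/- arrays. The HU wild type arrays were at 0.02, 0.03, -0.04 and -0.06, against 0.02, 0.06, 0.03 and -0.11 on the WB wild type arrays. The HU and WB arrays overlapped in both of these genotypes.

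**Figure D2:**
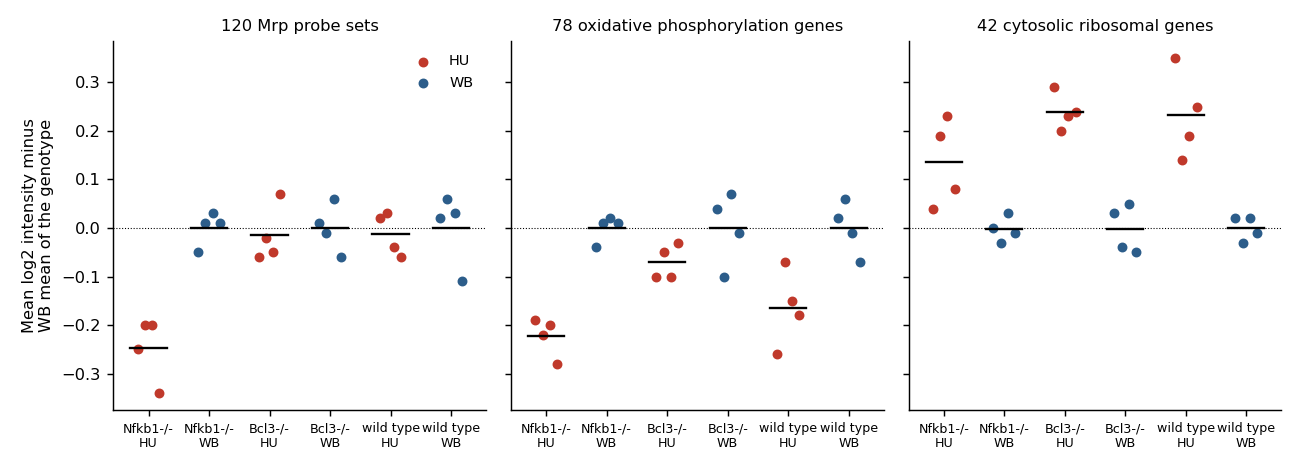
Mean log2 intensity of each array (point) over 120 Mrp probe sets, 78 oxidative phosphorylation genes and 42 cytosolic ribosomal genes, minus the mean of the WB arrays of its genotype, with HU in red, WB in blue and group means as lines. For the Mrp probe sets the HU Nfkb1-/- arrays lie between -0.34 and -0.20, below all 4 WB Nfkb1-/- arrays.

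Mrpl36 encodes the homologue of a small bacterial large subunit protein. Probe set 1422819_at had intensities of 37.4, 36.3, 35.2 and 32.2 in HU Nfkb1-/- muscle, against 55.2, 60.7, 58.0 and 58.9 in WB Nfkb1-/- muscle. The HU arrays were all below the WB arrays, a log2 change of -0.72 ± 0.09 (SE, adjusted p = 6.4e-05). In wild type mice it had 64.7, 50.5, 48.1 and 47.3 in HU wild type muscle, against 53.4, 54.6, 62.2 and 53.0 in WB wild type muscle, which overlapped (-0.09 ± 0.09, adjusted p = 0.68).

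Mrpl3 encodes a protein of the large subunit core. Its probe set 1422463_a_at had 37.3, 42.9, 40.8 and 24.0 in HU Nfkb1-/- muscle, against 66.6, 51.3, 57.6 and 63.8 in WB Nfkb1-/- muscle. One HU array was far below the other 3, and all 4 were below the WB arrays (-0.75 ± 0.15, adjusted p = 0.0016). A second probe set, 1422464_at, changed by -0.45 ± 0.10 (adjusted p = 0.0034), and the dim 1431006_at, at 9.47 or less on the Nfkb1-/- arrays, was at 0.28 ± 0.17 (adjusted p = 0.36). The wild type values of 1422463_a_at were 59.9, 53.8, 46.1 and 45.3 in HU wild type muscle, against 60.0, 53.5, 47.8 and 45.7 in WB wild type muscle. HU and WB wild type arrays overlapped throughout, a change of -0.02 ± 0.15 (adjusted p = 0.98).

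Mrpl19, another large subunit gene, fell on both of its probe sets that were tested. For 1421914_s_at the intensities were 33.2, 28.2, 28.5 and 32.1 in HU Nfkb1-/- muscle, against 51.4, 53.3, 48.9 and 50.4 in WB Nfkb1-/- muscle. The groups were well apart (-0.75 ± 0.10, adjusted p = 9.2e-05), and 1450405_at changed by -0.68 ± 0.13 (adjusted p = 0.0011). In wild type mice 1421914_s_at changed by -0.29 ± 0.10 (adjusted p = 0.10), with 40.2, 41.6, 38.4 and 35.5 in HU wild type muscle, against 50.4, 55.1, 46.4 and 39.9 in WB wild type muscle. HU and WB wild type arrays overlapped at a single WB array.

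Both probe sets of Mrpl48 also fell. Probe set 1428302_at had 138, 132, 152 and 111 in HU Nfkb1-/- muscle, against 203, 213, 206 and 223 in WB Nfkb1-/- muscle. All HU arrays were lower (-0.67 ± 0.10, adjusted p = 0.0002), and 1437997_x_at changed by -0.68 ± 0.12 (adjusted p = 0.00081). The wild type changes were -0.34 ± 0.10 (adjusted p = 0.056) and -0.39 ± 0.12 (adjusted p = 0.071), the largest falls in wild type among the 8 leading probe sets of Nfkb1-/- mice.

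Mrps28, of the small subunit, was the Mrps gene with the largest fall in Nfkb1-/- muscle. Its probe set 1452585_at had 166, 200.2, 231 and 178 in HU Nfkb1-/- muscle, against 279, 289, 264 and 285 in WB Nfkb1-/- muscle, with no overlap (-0.54 ± 0.10, adjusted p = 0.0016). The wild type change was -0.04 ± 0.10 (adjusted p = 0.90). Mrpl18, whose protein is known to help bring cytosolic 5S ribosomal RNA into mitochondria, had 140.4, 154, 176 and 124 in HU Nfkb1-/- muscle, against 202, 213, 213 and 216 in WB Nfkb1-/- muscle for probe set 1448373_at. Its HU arrays were all lower (-0.52 ± 0.09, adjusted p = 0.00065), while its wild type change was 0.06 ± 0.09 (adjusted p = 0.78).

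**Figure D3:**
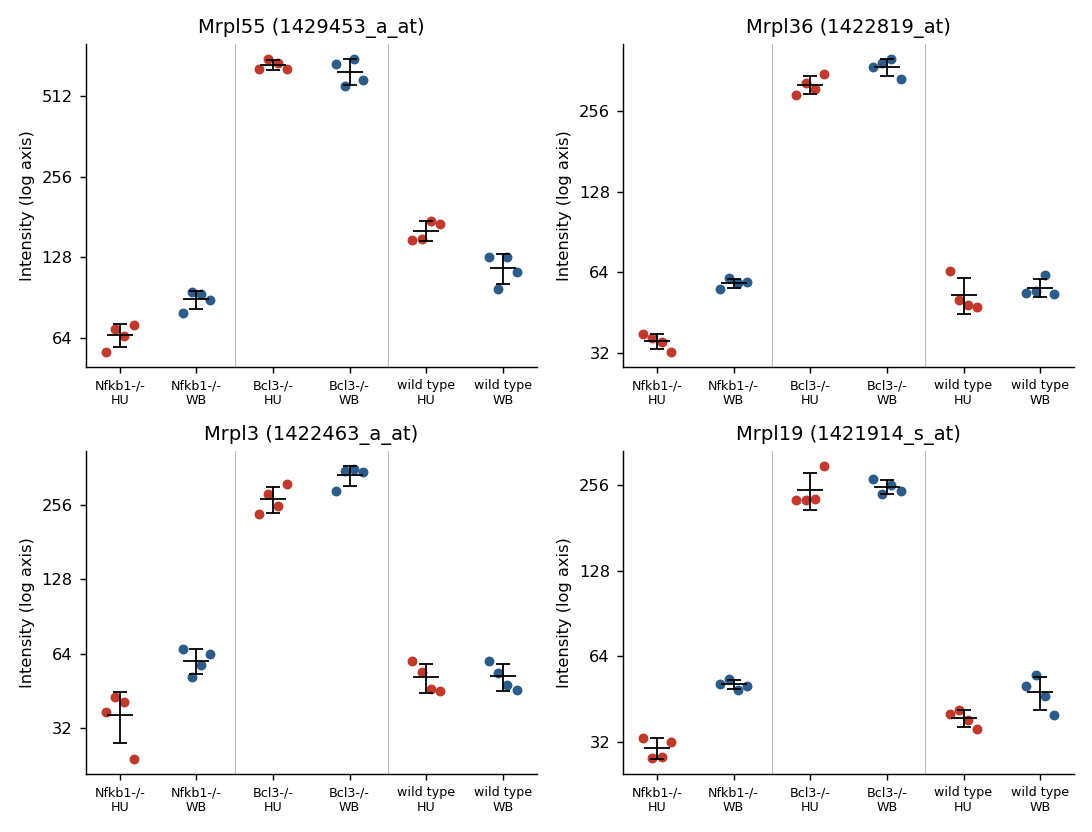
Intensity (log axis) on each array (points) of 1 probe set each of Mrpl55, Mrpl36, Mrpl3 and Mrpl19, with HU in red and WB in blue, and the mean and SD of 4 arrays in black. HU Nfkb1-/- arrays lie below WB Nfkb1-/- arrays in all 4 panels, and only for Mrpl55 do HU wild type arrays lie above all WB wild type arrays. Bcl3-/- arrays are on another scale.

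The remaining 41 probe sets called lower in Nfkb1-/- muscle changed by -0.52 to -0.27. They include genes with a known special role, named after their values were seen. Mrpl58 (-0.41), the peptidyl-tRNA hydrolase ICT1, frees stalled ribosomes. Mrpl45 (-0.46) lies at the tunnel exit and holds the ribosome at the inner membrane. Mrpl12 (-0.39) belongs to the stalk that recruits translation factors, and Mrpl11 (-0.32, -0.28 and -0.27 on 3 probe sets) to the base of that stalk. Mrps36 (-0.52) carries a ribosomal name, but its product is now known as a part of the oxoglutarate dehydrogenase complex.

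Of the 31 genes with several tested probe sets, 5 were called lower on all of them, 13 on some and 13 on none. In 7 of the 31, probe sets had changes of both signs. Mrps9 was the only gene with a probe set called higher in Nfkb1-/- muscle. That probe set, 1439210_at, had 12.9, 12.5, 11.6 and 11.6 in HU Nfkb1-/- muscle, against 9.50, 7.79, 9.39 and 8.51 in WB Nfkb1-/- muscle, a change of 0.47 ± 0.10 (adjusted p = 0.0044) with no overlap, but it was under 20 on every wild type and Nfkb1-/- array and was tested only because the Bcl3-/- arrays are brighter. The other 3 probe sets of Mrps9 changed by -0.37, -0.26 and -0.23, and none was called.

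The question of whether the Nfkb1-/- response differs from the wild type response was tested on the difference itself, with the same arrays as both responses. The Nfkb1-/- response was lower than the wild type response in 107 of 120 Mrp probe sets. The median difference was -0.26, against 0.00 over all probe sets, and was -0.15 with array weights. Only 2 Mrp probe sets, of Mrpl55 and Mrpl36, were called lower and 0 higher, where 0.119% of all probe sets were called lower and 0.0570% higher. At an unadjusted p under 0.05, 51 were lower and 1 was higher, where 7.32% of all probe sets were lower and 4.95% higher. Of the 49 probe sets called lower in Nfkb1-/- muscle, 40 also had a negative value in wild type muscle, and 31 differed between the responses at an unadjusted p under 0.05. The 49 were chosen by a low Nfkb1-/- response, which is part of that difference, so the choice itself raises the 31. Over the 120 members, Pearson's r between the Nfkb1-/- and wild type responses, which share no arrays, was 0.41, against 0.45 over all probe sets. It describes genes on the same arrays, which are not independent replicates.

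**Figure D4:**
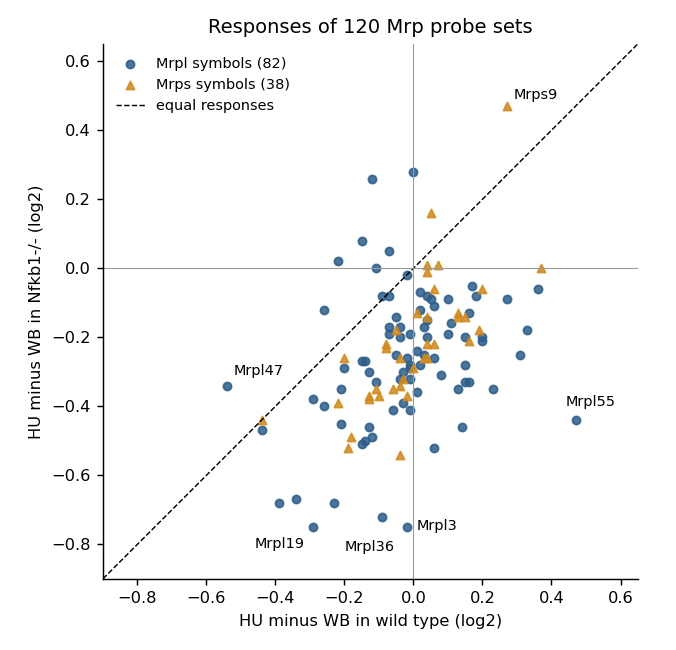
Log2 change with unloading in Nfkb1-/- (vertical axis) and wild type (horizontal axis) muscle for 120 Mrp probe sets, 82 with Mrpl symbols (circles) and 38 with Mrps symbols (triangles). The dashed line marks equal responses, and 107 of the 120 lie below it, with Mrpl55 farthest away.

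Mrpl55, a large subunit gene, moved in opposite directions in these mice. Probe set 1429453_a_at had 56.8, 69.1, 65.3 and 71.4 in HU Nfkb1-/- muscle, against 79.3, 95.1, 93.2 and 88.9 in WB Nfkb1-/- muscle. It had 148, 149, 175 and 171 in HU wild type muscle, against 128, 97.2, 128 and 113 in WB wild type muscle. Neither pair of groups overlapped, HU being the lower in Nfkb1-/- mice and the higher in wild type mice. The change was -0.44 ± 0.10 (adjusted p = 0.0056) in Nfkb1-/- muscle and 0.47 ± 0.10 (adjusted p = 0.0093) in wild type muscle, and the difference of -0.91 ± 0.14 had an adjusted p of 0.0059. In HU mice the Nfkb1-/- level minus the wild type level was -1.29 ± 0.10 on the log2 scale (adjusted p = 1.9e-08), and in WB mice the value was -0.38 (adjusted p = 0.085). In Bcl3-/- mice it had 645, 704, 676 and 646 in HU Bcl3-/- muscle, against 675, 558, 704 and 585 in WB Bcl3-/- muscle, which overlapped (0.09 ± 0.10, adjusted p = 0.63). The Mrp genes most like Mrpl55 over the 16 wild type and Nfkb1-/- arrays, as deviations from the genotype means and as a description only, were Mrpl24, Mrpl22 and Mrpl15, with Pearson's r of 0.751, 0.738 and 0.725.

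For Mrpl36 the responses differed by -0.63 ± 0.13 (adjusted p = 0.045), a call that was lost without any 1 of 14 of the 16 arrays. In HU mice its Nfkb1-/- level minus its wild type level was -0.57 ± 0.09 (adjusted p = 0.00056), and the WB difference was 0.06 (adjusted p = 0.97). Mrpl18 was just outside the threshold, with a difference of -0.58 ± 0.13 (adjusted p = 0.053), and Mrpl3 1422463_a_at had -0.74 ± 0.21 (adjusted p = 0.13).

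Set side by side on the same arrays, most calls between the genotypes were in HU muscle. In HU muscle 35 Mrp probe sets (29.2%, 31 genes) were lower in Nfkb1-/- than in wild type mice and 0 were higher (1 at an unadjusted p under 0.05), with a median of -0.22, where 4.58% of all probe sets were lower and 2.74% higher. This count was 18 without HU wild type replicate 1. Among the 102 members above 20 on at least 4 of the wild type and Nfkb1-/- arrays, 34.3% were lower, with a median of -0.25. Of all such probe sets, 7.54% were lower and 3.81% higher, with a median of -0.04. In WB muscle 1 of the 120 was lower, Mrpl47 (-0.70, adjusted p = 0.00078), and 1 was higher, Mrpl9 (0.45, adjusted p = 0.0497), the last named after its value was seen. The median was 0.02, where 0.332% of all probe sets were lower and 0.570% higher.

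In wild type muscle few Mrp probe sets were called. Unloading changed 6 of the 120 probe sets, 3 in each direction, where 1.66% of all probe sets were lower and 2.31% higher, and the median was -0.01 for the members and for all probe sets. HU lay wholly below WB in 7 members, against 4.89% of all probe sets. Among the 102 members above 20 on at least 4 of the wild type and Nfkb1-/- arrays, 2.94% were higher and 2.94% lower, with a median of -0.01. Of all such probe sets, 3.99% were higher and 2.63% lower, with a median of 0.03. Beside Mrpl55, Mrpl33 1448190_at and Mrps34 were higher. The large subunit gene Mrpl33 had 278, 232, 279 and 259.9 in HU wild type muscle, against 215, 210.0, 212 and 178 in WB wild type muscle. HU arrays were all above WB arrays (0.36 ± 0.08, adjusted p = 0.0087). In Nfkb1-/- mice the change was -0.06 ± 0.08 (adjusted p = 0.70). The dim second Mrpl33 probe set, 1425843_at, had 3.98, 3.96, 3.64 and 3.46 in HU wild type muscle, against 3.99, 3.62, 4.55 and 4.53 in WB wild type muscle. Its groups overlapped, and it was not called. The small subunit gene Mrps34 had 325, 315, 294 and 314 in HU wild type muscle, against 259, 229, 269 and 213 in WB wild type muscle. These did not overlap (0.37 ± 0.09, adjusted p = 0.022), and the Nfkb1-/- change was 0.00 ± 0.09 (adjusted p = 0.99). The differences between these responses had adjusted p-values of 0.098 for Mrpl33 and 0.24 for Mrps34.

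The 3 probe sets lower in wild type were called lower in Nfkb1-/- muscle as well, with several calls near the threshold. The Mrpl47 call in Nfkb1-/- muscle was lost in 13 of 20 alternatives, among them 7 of the 8 that left out 1 array, and the wild type calls were lost in 12 of 21 for Mrps12 and 8 of 20 for Mrpl51. The large subunit gene Mrpl47 had 97.9, 106, 119 and 128 in HU wild type muscle, against 129.8, 185, 197 and 150.0 in WB wild type muscle, with no overlap (-0.54 ± 0.11, adjusted p = 0.0065), and changed by -0.34 ± 0.11 (adjusted p = 0.0485) in Nfkb1-/- muscle. Mrpl51 1416878_at, a dim probe set at 21.9 or less on the wild type arrays, fell in wild type muscle (-0.44 ± 0.11, adjusted p = 0.023). Its Nfkb1-/- change was -0.47 ± 0.11 (adjusted p = 0.0068). The brighter Mrpl51 probe set 1416877_a_at had 587, 586, 608 and 531 in HU Nfkb1-/- muscle, against 719, 702, 719 and 711 in WB Nfkb1-/- muscle. It was lower in all HU Nfkb1-/- arrays (-0.30 ± 0.06, adjusted p = 0.0033) and changed by -0.03 ± 0.06 (adjusted p = 0.86) in wild type. Mrps12, the homologue of a bacterial decoding centre protein, had 72.6, 75.7, 66.6 and 59.0 in HU wild type muscle, against 103, 121, 77.6 and 76.0 in WB wild type muscle. It did not overlap (-0.44 ± 0.13, adjusted p = 0.0496), and its change in Nfkb1-/- muscle was also -0.44 ± 0.13 (adjusted p = 0.025).

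In Bcl3-/- muscle 3 Mrp probe sets were higher and 2 lower with unloading, where 7.59% of all probe sets were higher and 2.81% lower. The median was 0.00 for the members and 0.02 for all probe sets, and HU lay wholly below WB in 5 members, against 4.07% of all probe sets. Among the 102 members above 20 on at least 4 of the wild type and Nfkb1-/- arrays, 1.96% were higher and 1.96% lower, with a median of 0.01. Of all such probe sets, 12.6% were higher and 3.67% lower, with a median of 0.10. The 5 calls among the 120 members depended on the fit. When the Bcl3-/- arrays were fitted alone, 0 were left (19 at an unadjusted p under 0.05). Without HU replicate 1, 0 were left (15 at an unadjusted p under 0.05). The large subunit gene Mrpl23 had 2396, 2241, 2222 and 2374 in HU Bcl3-/- muscle, against 2085, 1613, 1998 and 1769 in WB Bcl3-/- muscle. All HU arrays were higher (0.31 ± 0.09, adjusted p = 0.022). Mrps15 1449294_at, of the small subunit, had 1037, 1081, 1007 and 1069 in HU Bcl3-/- muscle, against 791, 876, 918 and 845 in WB Bcl3-/- muscle, again with no overlap (0.29 ± 0.09, adjusted p = 0.0488). The other Mrps15 probe set, 1456109_a_at, had 936, 934, 935 and 860.5 in HU Bcl3-/- muscle, against 705, 864, 860.9 and 723 in WB Bcl3-/- muscle. Its groups overlapped, and it was not called. Mrpl15 1430798_x_at changed by 0.36 ± 0.10 (adjusted p = 0.025), and its groups overlapped. That probe set was dim, and the other 5 tested probe sets of Mrpl15 ranged from -0.08 to 0.20 with no call.

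The probe sets lower in Bcl3-/- muscle were Mrpl39 1417966_at and Mrpl46, both lower in Nfkb1-/- muscle too. Mrpl46, of the large subunit, had 414, 429, 400.4 and 436 in HU Bcl3-/- muscle, against 506, 567, 536 and 433 in WB Bcl3-/- muscle. One WB array was within the HU range (-0.28 ± 0.08, adjusted p = 0.025). In Nfkb1-/- mice it had 59.6, 56.5, 56.6 and 57.9 in HU Nfkb1-/- muscle, against 71.3, 76.1, 73.4 and 72.1 in WB Nfkb1-/- muscle, with no overlap (-0.35 ± 0.08, adjusted p = 0.0047). Mrpl39 1417966_at changed by -0.35 ± 0.11 (adjusted p = 0.039) in Bcl3-/- and by -0.41 ± 0.11 (adjusted p = 0.015) in Nfkb1-/- muscle, and the second probe set 1448909_a_at by -0.22 ± 0.08 (adjusted p = 0.071) and -0.51 ± 0.08 (adjusted p = 0.00026).

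The other genes of mitochondrial translation were described by lists. Values here are for 1 probe set a gene, over which 36 of 74 Mrp genes (48.6%) were lower in Nfkb1-/- muscle, with a median of -0.28, against 7.02% of all 11098 genes and a median of 0.00. Ribosomal proteins under other symbols had 1 of 4 lower (median -0.23), Ptcd3 (-0.45, adjusted p = 0.0023), a small subunit protein. Translation factors had 2 of 9 lower (median -0.26). These were Mtif2 (-0.47, adjusted p = 0.0016), the initiation factor, and Mtfmt (-0.52, adjusted p = 0.0033), which formylates the initiator methionyl-tRNA. Tufm, the elongation factor, was at -0.18 (adjusted p = 0.26). Assembly and rRNA modification factors had 4 of 13 lower (median -0.20), led by Fastkd2 (-0.60, adjusted p = 0.0019), Mrm2 (-0.49, adjusted p = 0.0014) and Nsun4 (-0.45, adjusted p = 0.020), which bind or methylate mitochondrial ribosomal RNA. Mitochondrial aminoacyl-tRNA synthetases had 0 of 12 lower (median -0.17, 2 lower at an unadjusted p under 0.05). None of the genes in these 4 lists was called in wild type muscle, where 7 were lower and 4 higher at an unadjusted p under 0.05. Of all 11098 genes, 1.75% were called lower and 2.18% higher there, with 924 lower and 1075 higher at that unadjusted p. None was called for the difference between the Nfkb1-/- and wild type responses either. That difference was lower at an unadjusted p under 0.05 for 2 of 4, 3 of 9, 2 of 13 and 1 of 12 genes, in the order given, and higher for 0. For the same difference, 767 of all 11098 genes were lower and 595 higher at that unadjusted p.

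Regulators of mitochondrial genes had 2 of 11 lower in Nfkb1-/- muscle, with a median of 0.03, and 1 of 11 without any 1 of the 8 arrays. The co-activator Ppargc1b changed by -0.57 ± 0.15 (adjusted p = 0.013) and the nuclear receptor Esrra by -0.31 ± 0.10 (adjusted p = 0.0496). Ppargc1a, the co-activator PGC-1α, was at -0.18 (adjusted p = 0.54) and Tfam, the mitochondrial transcription factor, at -0.02 (adjusted p = 0.92). In Bcl3-/- muscle Esrra was lower (-0.39, adjusted p = 0.019), as were the seryl-tRNA synthetase Sars2 (-0.69, adjusted p = 0.00036) and Qrsl1 (-0.39, adjusted p = 0.049), a subunit of the enzyme that makes glutaminyl-tRNA, while the mitochondrial RNA polymerase Polrmt was higher (0.40, adjusted p = 0.025). Without 1 array, 0 to 2 regulators were lower and 0 to 1 higher in Bcl3-/- muscle.

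Oxidative phosphorylation subunits, most of them in complexes that also hold mitochondrially made proteins, were lower for 38 of 78 genes in Nfkb1-/- muscle (48.7%, median -0.23). They were also lower for 19 of 78 in wild type muscle (24.4%, median -0.20), where 2 of 74 Mrp genes (2.70%, median 0.00) and 1.75% of all genes were lower, and for 6 of 78 in Bcl3-/- muscle (7.69%, median -0.06), where 2.99% of all genes were lower. Without 1 array the 19 in wild type became 7 to 28, with 7 without HU replicate 1 or WB replicate 2, and the 6 in Bcl3-/- became as few as 2. The median difference between the Nfkb1-/- and wild type responses was -0.28 for Mrp genes, with 38 lower and 0 higher at an unadjusted p under 0.05, and -0.04 for oxidative phosphorylation genes, with 8 lower and 2 higher. Of all 11098 genes, 767 were lower and 595 higher at that unadjusted p for this difference, with a median of 0.00. The cytosolic ribosomal proteins went the other way, with 8 of 42 higher in Nfkb1-/- muscle (median 0.14), 20 in Bcl3-/- muscle (median 0.24) and 12 in wild type muscle (median 0.21), and with 0 lower in each genotype (2, 0 and 0 at an unadjusted p under 0.05). Of all genes, 5.22% were higher in Nfkb1-/-, 7.50% in Bcl3-/- and 2.18% in wild type muscle. Without 1 array the counts became 3 to 12 in Nfkb1-/- (3 without HU replicate 2), 15 to 21 in Bcl3-/- and 7 to 17 in wild type muscle (7 without HU replicate 1, HU replicate 4 or WB replicate 2).

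**Figure D5:**
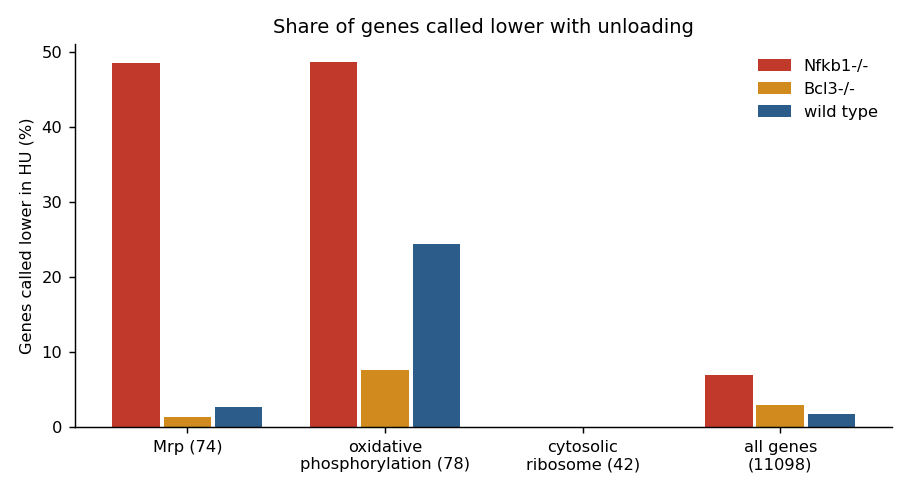
Percentage of genes called lower with unloading (vertical axis, adjusted p under 0.05, 1 probe set a gene) among Mrp genes, oxidative phosphorylation genes, cytosolic ribosomal genes and all genes, in Nfkb1-/-, Bcl3-/- and wild type muscle. The Mrp bars stand at 48.6% in Nfkb1-/-, 1.35% in Bcl3-/- and 2.70% in wild type, and the cytosolic ribosomal bars are all at 0.

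Markers of other cells also moved in unloaded Nfkb1-/- muscle. Of all genes, 5.22% were higher and 7.02% lower in Nfkb1-/-, 7.50% and 2.99% in Bcl3-/- and 2.18% and 1.75% in wild type muscle. Tendon and fibroblast genes were lower for 4 of 8 in Nfkb1-/- muscle (median -0.74), with summed intensities of 3444 to 6417 on HU and 7611 to 8899.9 on WB arrays, and were lower for 2 of 8 in wild type and 4 of 8 in Bcl3-/- muscle. Adipocyte genes were higher for 2 of 3 in Nfkb1-/- muscle (median 0.75, summed intensities of 1016 to 1309 on HU and 772 to 1079.8 on WB arrays), and neutrophil genes for 2 of 4 (median 0.94, 52.3 to 129 on HU and 24.8 to 37.0 on WB arrays). Neutrophil genes were also higher for 2 of 4 in Bcl3-/- muscle (median 1.49) and for 0 of 4 in wild type muscle (median 0.48). Adipocyte genes were called for 0 of 3 in both (medians 0.31 and 0.17). Slow fibre genes were higher for 2 of 6 in Nfkb1-/- muscle (Myh7, 0.58, and Tnnc1, 0.63, list median 0.40, summed intensities of 2245 to 5463 on HU and 2669 to 4274 on WB arrays), lower for 5 of 6 in Bcl3-/- muscle (median -0.91) and called for 0 of 6 in wild type muscle (median 0.48, 4 higher at an unadjusted p under 0.05). Of the nerve genes 1 of 2 was higher in Nfkb1-/- muscle (Mbp, 0.84), and of the endothelial genes 1 of 5 was lower (Emcn, -0.74). In Bcl3-/- muscle 1 of 2 nerve genes was higher too (list median 0.68), against 0 of 2 in wild type muscle (list median 0.44). In Nfkb1-/- muscle none of 6 other muscle fibre genes, most of them of fast fibres (1 lower at an unadjusted p under 0.05) and none of 9 macrophage genes (1 higher) was called, with medians of -0.07 and -0.04. Macrophage genes were called for 0 of 9 in wild type (median 0.37, 5 higher unadjusted) and in Bcl3-/- muscle (median -0.25, 1 lower unadjusted). Their Nfkb1-/- response minus the wild type response had a median of -0.42, with 0 called (2 lower unadjusted). The part of these shifts in the Mrp result was not tested.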

How the data were processed

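Gastrocnemius and plantaris RNA of 24 mice was hybridised to 24 arrays. The authors read the scanner files into GenePattern and deposited linear intensity values made by RMA with quantile normalization. A total of 22690 probe sets were listed, of which 64 were controls. Of the other 22626, 20380 had 1 gene in the platform annotation used, 691 several and 1555 none listed. Current RefSeq symbols added 0 members, and 3 probe sets listed with an Mrp gene and another gene were left out. Groups came from the sample labels.

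Probe sets above 20 on at least 4 arrays (19294, 11098 genes) were fitted as log2 intensity with 1 mean per group over all 24 arrays in limma 3.58.1 (lmFit, contrasts.fit, eBayes) in R 4.3.3. A call means an adjusted p under 0.05 (Benjamini-Hochberg) over all probe sets tested. Tests are two-sided, SE is that of the log2 change, and the number of arrays limits the precision. The labels number the arrays of a group as replicates, and the study states that 24 mice were used, 4 in each group. The fit was tested on simulated data.

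Named were every Mrp probe set called in a response or in the difference, or the 8 with the largest change where more than 12 were called one way, Mrpl55, and other probe sets of these genes. Other lists gave up to 3 called genes each and Tufm, Tfam and Ppargc1a, with the brightest probe set of a gene standing for it. The members and lists were chosen with earlier results of these data known. Alternatives were other filters, fits, array weights, scalings, a pseudocount of 16, the methods' test of the study, the replicate block and each array left out. The methods' t-test was run with unequal variances on log2 intensity, over all probe sets tested. The study filtered its probe sets before its own t-test, so these counts are not those of its full procedure. Quantile normalization within each scale and members without cross-hybridising probe sets (18 ending in _s_at or _x_at) were added after the data were seen.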

Additional observations from a re-analysis of the deposited data

Results flagged for a closer look

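Within groups of 4 arrays, the gap between 1 extreme array and its neighbour, over the range of the group, was above Dixon's critical value in 12 of 126 groups examined, where chance gives about 1 in 20. In HU Bcl3-/- muscle replicate 4 was the high array for Mrpl33 1448190_at (0.866), Mrpl19 1421914_s_at (0.958), Mrpl48 1428302_at (0.889), Mrpl18 1448373_at (0.955) and Mrpl39 1417966_at (0.854). In WB wild type muscle replicate 4 was the low array for Mrpl33 1448190_at (0.854), Mrpl48 1428302_at (0.928), Mrpl18 1448373_at (0.843) and Mrpl15 1430798_x_at (0.878). The others were Mrpl3 1422463_a_at in WB Bcl3-/- muscle, low in replicate 1 (0.849), Mrpl48 1437997_x_at in WB Nfkb1-/- muscle, low in replicate 3 (0.845), and Mrpl46 1449004_at in HU wild type muscle, high in replicate 2 (0.887).

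The unloading response differed between Nfkb1-/- and wild type mice, by a test of the difference, for Mrpl55 1429453_a_at (-0.91) and Mrpl36 1422819_at (-0.63).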

How the results depend on the processing

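No called value changed sign under an alternative, but medians near 0 did. The filter of the study was applied over the arrays compared, with a highest to lowest ratio of at least 1.7 and a difference of at least 9. It favours probe sets that differ between the groups, and p-values were adjusted over those alone. Its shares and medians are therefore of selected probe sets and give no separate support. The median over Mrp probe sets for Nfkb1-/- against wild type in WB muscle, 0.02, ranged from -0.13 under the filter of the study to 0.04, that in wild type, -0.01, from -0.41 under that filter to 0.01, and that in Bcl3-/- from -0.14 to 0.01. In Nfkb1-/- muscle 50 Mrp probe sets were called, and 14 of the 15 that passed the filter of the study, 12 with the methods' t-test after Benjamini-Hochberg adjustment, 29 with its q-values and 33 to 44 with 1 array left out (33 without WB Nfkb1-/- replicate 4). The 6 calls in wild type became 0 in a fit of only the groups compared (20 at an unadjusted p under 0.05), 21 with array weights, 0 with the methods' t-test under either adjustment (22 unadjusted) and 3 to 10 with 1 array left out (3 without HU replicate 4 or WB replicate 2, 10 without HU replicate 2). The 5 calls in Bcl3-/- muscle became 0 in the fit of the Bcl3-/- arrays alone and in that of only the groups compared (19 unadjusted), 0 of 5 under the filter of the study (0 unadjusted), 0 with the methods' t-test under either adjustment (27 unadjusted), 2 with 1 probe set a gene, 11 with array weights, 12 with quantile normalization again or within each scale, 22 with the pseudocount and 0 to 6 with 1 array left out (0 without HU replicate 1, 1 without HU replicate 3 or WB replicate 2).

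The 2 calls for the difference between the Nfkb1-/- and wild type responses became 1 in the fit of these 16 arrays with their own filter and in that of only the groups compared, 9 of 26 under the filter of the study, 5 with array weights, 1 with the replicate block and 1 to 3 with 1 array left out. Mrpl55 was called under all 27 alternatives (adjusted p 0.00074 to 0.025), and the Mrpl36 difference was lost in 18 of 27 (0.007 to 0.12). For Nfkb1-/- against wild type in HU muscle, 35 calls became 18 of 19 under the filter of the study, 7 in the fit of only the groups compared, 1 and 3 with the methods' t-test after Benjamini-Hochberg adjustment and with q-values, and 18 to 34 with 1 array left out (18 without HU wild type replicate 1). In WB muscle the 2 calls became 1 with no filter, within these 16 arrays, in the fit of only the groups compared and with the pseudocount, 5 with array weights, 0 with the methods' t-test under either adjustment (12 unadjusted) and 1 to 2 with 1 array left out. Oxidative phosphorylation calls ranged from 4 to 46 in Nfkb1-/- and from 0 to 41 in wild type muscle. The causes were not tested.

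Replicate numbers did not pair the arrays. Same-numbered HU and WB arrays had correlations of -0.17 to 0.22 in their deviations, and only replicates 3 and 4 of Nfkb1-/- mice were above 0.1. Besides the difference between the responses, the block lost the calls of Mrps12 in wild type (adjusted p = 0.07) and of Mrpl39 1417966_at in Bcl3-/- muscle (0.056), so that 1 of the 2 lower calls there was left, and it left 1 of 2 regulators called in Nfkb1-/- and 1 of 2 synthetases in Bcl3-/- muscle. It changed no other call of a named Mrp probe set. Dim probe sets limit what can be seen, since 18 of the 120 members were not above 20 on 4 of the wild type and Nfkb1-/- arrays, of which 3 were lower and 1 higher in Nfkb1-/- muscle.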
